A study of Mus musculus with 2 samples.

Results

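The cells described here were aortic fibroblasts that carried transcripts of Saa3, an acute-phase serum amyloid A protein, or of Il33, an alarmin of the interleukin-1 family. Members were picked from single-cell RNA-seq counts by measured levels. A cell barcode had to hold at least 200 genes and at most 20% mitochondrial transcripts, at least 0.4% of its UMIs (unique molecular identifiers, which count captured transcripts) from the fibroblast proteoglycan gene Dcn, and at least 0.1% from Saa3 and Il33 together. Barcodes with more than 2 UMIs of the adipocyte gene Adipoq, any UMI of the leukocyte gene Ptprc or more than 1 UMI of the endothelial gene Pecam1 were left out. The rule found 847 barcodes of 17274, with 642 in the DMSO library and 205 in the inhibitor library. The same rule without the limit on Saa3 and Il33 gave 1334 and 1900 further barcodes, called other Dcn fibroblasts below.

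Both libraries came from 12-week-old Apoe-/- mice, which lack apolipoprotein E, in which angiotensin II had been used to cause an abdominal aortic aneurysm, so that neither group was free of the aneurysm. One group had received DMSO, a solvent, and the other an inhibitor whose name is not in the labels; the groups were read from the initials in the sample titles and the series design. Tissue was cut into 5 segments and digested with enzymes. The labels give neither the segment of a cell nor the number of animals. With 1 library per group there was no replicate check and no test, and every interval below is a 95% interval that covers counting error only.

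Adventitial fibroblasts build the collagen-rich outer coat of the artery and can take on an inflammatory state. Signals such as interleukin-1 and TNF act on them through the transcription factors NF-kappa-B, AP-1 and C/EBP and switch on acute-phase proteins, chemokines and matrix proteases. Serum amyloid A and the chemokines attract leukocytes, Il33 is a nuclear cytokine released from damaged cells, Mmp3 cleaves matrix and activates other metalloproteinases, and Timp1 inhibits them.

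On GRCm38, Saa3 (ENSMUSG00000040026) lies on chromosome 7 from 46711998 to 46715700 (minus strand), and Il33 (ENSMUSG00000024810) on chromosome 19 from 29925114 to 29960718 (plus strand). Mmp3 (ENSMUSG00000043613) lies on chromosome 9 from 7445822 to 7455975 and Timp1 (ENSMUSG00000001131) on chromosome X from 20870166 to 20874735, both on the plus strand. The 250 bases before the transcription start (RefSeq, GRCm38.p6) are shown for genes that the results below turn on: Saa3, Lcn2 and Mmp3 were high in members, Cxcl1 and Il6 were lower in the inhibitor library, and Hspa5 and Creld2 were higher there. Capitals mark matches, on either strand, to the C/EBP pattern TTGCNNAA (Saa3, Lcn2, Mmp3, Il6), the AP-1 pattern TGANTCA (Mmp3, Il6, Hspa5), a narrow NF-kappa-B pattern, GGGA and TTTCC with 1 base between (Cxcl1, Il6), and the ER stress element, which is CCAAT and CCACG with 9 bases between (Hspa5, Creld2). Matches to the broad NF-kappa-B pattern described below are not marked.
Saa3: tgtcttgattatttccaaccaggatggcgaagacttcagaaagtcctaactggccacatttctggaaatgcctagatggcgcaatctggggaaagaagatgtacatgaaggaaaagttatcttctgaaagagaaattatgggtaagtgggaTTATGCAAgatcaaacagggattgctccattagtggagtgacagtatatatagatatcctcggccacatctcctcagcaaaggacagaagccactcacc
Lcn2: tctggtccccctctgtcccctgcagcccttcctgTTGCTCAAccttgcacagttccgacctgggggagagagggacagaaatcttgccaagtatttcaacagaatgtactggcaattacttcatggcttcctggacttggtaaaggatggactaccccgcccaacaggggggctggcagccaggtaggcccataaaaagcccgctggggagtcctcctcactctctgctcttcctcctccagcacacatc
Mmp3: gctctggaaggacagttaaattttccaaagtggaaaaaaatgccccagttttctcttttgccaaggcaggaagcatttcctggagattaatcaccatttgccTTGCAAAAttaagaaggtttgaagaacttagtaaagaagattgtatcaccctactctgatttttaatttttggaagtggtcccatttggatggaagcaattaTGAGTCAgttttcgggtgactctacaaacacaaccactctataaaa
Cxcl1: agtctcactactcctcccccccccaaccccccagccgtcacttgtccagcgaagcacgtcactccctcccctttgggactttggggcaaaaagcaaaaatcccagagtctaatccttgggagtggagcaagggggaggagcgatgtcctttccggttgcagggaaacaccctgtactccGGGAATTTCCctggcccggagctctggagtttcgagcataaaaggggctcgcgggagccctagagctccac
Il6: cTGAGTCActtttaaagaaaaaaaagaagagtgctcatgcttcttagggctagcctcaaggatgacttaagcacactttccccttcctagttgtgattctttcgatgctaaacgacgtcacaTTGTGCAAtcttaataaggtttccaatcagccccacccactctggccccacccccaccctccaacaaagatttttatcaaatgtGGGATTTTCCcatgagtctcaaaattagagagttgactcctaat
Hspa5: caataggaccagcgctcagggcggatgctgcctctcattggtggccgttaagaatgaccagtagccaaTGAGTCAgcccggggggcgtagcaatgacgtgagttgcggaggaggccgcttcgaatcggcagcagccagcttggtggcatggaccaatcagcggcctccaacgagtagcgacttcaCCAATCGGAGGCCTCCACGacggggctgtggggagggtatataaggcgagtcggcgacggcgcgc
Creld2: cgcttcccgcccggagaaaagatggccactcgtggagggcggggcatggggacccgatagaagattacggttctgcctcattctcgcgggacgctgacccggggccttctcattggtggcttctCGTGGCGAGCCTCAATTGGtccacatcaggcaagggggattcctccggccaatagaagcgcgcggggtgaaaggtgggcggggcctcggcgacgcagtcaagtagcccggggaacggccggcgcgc

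Of all 32851 promoter windows of this length, 9.56% held the C/EBP pattern, 6.75% the AP-1 pattern and 0.113% the ER stress element. Among the 12 genes that stood highest in members, without Saa3, Il33 and Mmp3, 8 had a window, of which 2 (25%) held the C/EBP pattern, 1 (12.5%) the AP-1 pattern and 0 the ER stress element. Of the 8 genes that stood lowest in members, all with a window, 2 (25%) held the C/EBP and 1 (12.5%) the AP-1 pattern, the same shares as among the highest. The set high in members was first taken with Saa3, Il33 and Mmp3, which the member rule or the cells' name had brought in, and they were set aside after these shares had been seen. With them, 15 genes gave 11 with a window, of which 5 (45.5%) held the C/EBP and 2 (18.2%) the AP-1 pattern. Of 16 genes of a list of endoplasmic reticulum (ER) chaperones, 14 had a window and 6 (42.9%) of these held the ER stress element. The NF-kappa-B pattern searched first, a broad one of GGG and CC with 5 bases between, was held by 5 of the 8 genes high in members (62.5%; 5 of 11, or 45.5%, with Saa3, Il33 and Mmp3), 4 of the 8 low in members (50%) and 45.8% of all windows. The narrow pattern was written after the broad one had been searched and after the Cxcl1 and Il6 windows had been seen, so their matches to it are no evidence; 0.356% of all windows held it and 0 genes of the 4 sets did. In all, 5 patterns were searched. Timp1 held no AP-1 match in its window. A gene counted once if any of its windows matched, while the shares over all windows counted each window. A gene with more than 1 window, such as Il33 or Rbp4, could therefore match more easily than a single window. A match describes letters and shows no binding.

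Members were a smaller part of the inhibitor library. They made up 7.41% of the barcodes passing the limits on genes and mitochondrial UMIs in the DMSO library (642 of 8664; exact Clopper-Pearson interval 6.87 to 7.98%) and 2.61% in the inhibitor library (205 of 7857; 2.27 to 2.99%). The DMSO share was 2.84-fold the other, a log2 ratio of inhibitor over DMSO of -1.51 (-1.82 to -1.20). Dcn fibroblasts as a whole were 22.8% and 26.8% of the 2 libraries. Among them, members were 32.5% (30.4 to 34.6%) in the DMSO and 9.74% (8.51 to 11.1%) in the inhibitor library, a log2 ratio of -1.74. The intervals of the shares did not overlap on either base.

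The difference in share lay more with Saa3 than with Il33. With the limit set on Saa3 alone, the log2 ratio of shares among Dcn fibroblasts was -2.56, and with the limit on Il33 alone it was -1.27. In the DMSO library 140 members (21.8%) held 0.1% or more of each gene, 215 (33.5%) of Saa3 only and 223 (34.7%) of Il33 only. In the inhibitor library these numbers were 26 (12.7%), 38 (18.5%) and 134 (65.4%). Il33 cells with little Saa3 were therefore the most common kind of member in the inhibitor library. Members with no Saa3 UMI at all were 17.0% of the DMSO and 52.7% of the inhibitor members.

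**Figure D1:**
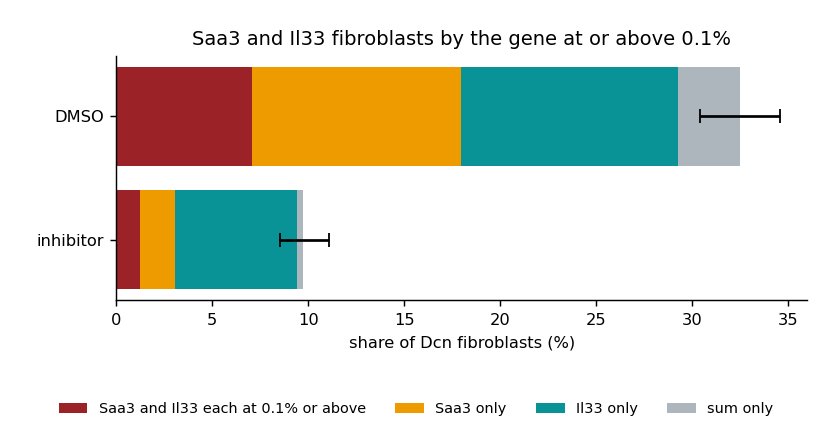
Share of Dcn fibroblasts (x axis, %) that were members in each library (y axis), split by colour into the gene at or above 0.1% of UMIs; the black bar is the 95% Clopper-Pearson interval of the total. The DMSO total is 32.5% and the inhibitor total 9.74%, and the Il33-only part is the largest in the inhibitor library.

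Depth and free RNA differed between the libraries beside these shares. Members held a median of 19644 UMIs in the DMSO and 14272 in the inhibitor library, and other Dcn fibroblasts 11494 and 8205. Barcodes with at least 2000 UMIs were also thinned to 2000 UMIs before the rule was applied, and those with fewer were left out. The limits on Adipoq, Ptprc and Pecam1 were then counted on thinned UMIs, which makes them looser. The share among Dcn fibroblasts was then 40.0% and 14.9% (845 of 2110 and 288 of 1928), a log2 ratio of -1.42. In unthinned barcodes with at least 2000 UMIs it was 32.1% and 9.15% (564 of 1759 and 168 of 1836), a log2 ratio of -1.81. Saa3 also appeared in cells that should lack it: barcodes with T cell markers held 48.6 CPM (UMIs per 1000000 UMIs) in the DMSO and 3.20 CPM in the inhibitor library. At 2000 UMIs each, 8.74% of T cell barcodes of the DMSO library (median depth 4076 UMIs) held a Saa3 UMI, against 64.4% of members (median depth 19644 UMIs), and 0 of 51 did in the inhibitor library (median depth 4028 UMIs) against 42.3% of members. Barcodes with adipocyte markers held 2134 and 739 CPM of Saa3, so the fibroblasts were not the only cells with high Saa3. The part of free RNA in the difference in shares was not tested.

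The levels of the label's 4 marker genes are given here as a description. Saa3 and Il33 chose the members, so their levels are a description: Saa3 stood at 5252 CPM in DMSO and 3219 CPM in inhibitor members, and Il33 at 1442 and 1480.2 CPM. Mmp3 was at 4027 and 2835 CPM in members against 1256 and 1148 CPM in other Dcn fibroblasts. Timp1 was at 3632 and 3426 CPM against 1008 and 1047 CPM. Both genes were thus higher in pooled members than in other Dcn fibroblasts of the same library. In inhibitor members with Il33 only, Timp1 was at 3245 CPM, but Mmp3 was at 1297 CPM, near the other Dcn fibroblasts. The rule did not name them, but they came with the label, which was chosen with earlier results of these data known. Their levels are therefore no independent check of the label. The summed level of 9 fibroblast markers, such as Col1a1 and Pdgfra, was 52262 CPM in DMSO and 49603 CPM in inhibitor members.

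Summed markers of other cell types stood below the fibroblast markers in members, and most were unequal between the libraries. The summed level of 9 macrophage markers was 233 CPM in DMSO and 88.3 CPM in inhibitor members, and that of 8 adipocyte markers 153 and 38.1 CPM. Leaving out barcodes with UMIs of more than a single adipocyte marker left 502 of 642 DMSO but 202 of 205 inhibitor members. Smooth muscle markers went the other way, with 745 and 1236 CPM over 8 genes. Pericyte markers summed to 599.5 and 529.6 CPM over 6 genes. Mesothelial markers summed to 15.6 and 2.18 CPM and endothelial markers to 17.6 and 9.67 CPM. Krt8 (mesothelial) and Lep (adipocyte) had no UMI in members of either library. Scrublet called 5 and 3 members as doublets, and of 16 barcodes that occurred in both libraries 0 were members in both.

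Cells picked by a threshold lie along a range rather than apart from their neighbours. Just outside it, at 0.05 to 0.1% of Saa3 plus Il33, lay 354 DMSO and 205 inhibitor barcodes, and just inside, at 0.1 to 0.2%, 270 and 111. Chl1, a neural adhesion molecule, was at 229 CPM outside and 433 CPM inside in the DMSO library, and at 35.4 and 123 CPM in the inhibitor library. Timp1 stepped from 1298 to 2279 CPM and from 1894 to 2530.3 CPM. Mmp3 went from 1134 to 2637 CPM in the DMSO library but was 1381 and 1337 CPM in the inhibitor library.

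Over the whole range, several genes that the rule did not use were graded in both libraries. From barcodes with no Saa3 or Il33 UMI to those with 0.5% or more, Chl1 went from 30.9 to 887 CPM in the DMSO and from 3.15 to 1017 CPM in the inhibitor library. Col3a1, a fibrillar collagen, went from 8161 to 24031 CPM and from 9564 to 23570.2 CPM. Sod2, the mitochondrial superoxide dismutase, went from 90.7 to 476 CPM and from 85.8 to 511 CPM. Rbp4, the plasma carrier of retinol, went the opposite way, from 612 to 47.0 CPM and from 2143 to 77.3 CPM. Depth also differed between members and other Dcn fibroblasts, by the medians given above, and more widely between these end bins. From the bin with no UMI of either gene to the bin at 0.5% or more, the median went from 4503 to 25165 UMIs in the DMSO library. In the inhibitor library it went from 6002 to 25973 UMIs. The part of depth in these grades was not tested.

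**Figure D2:**
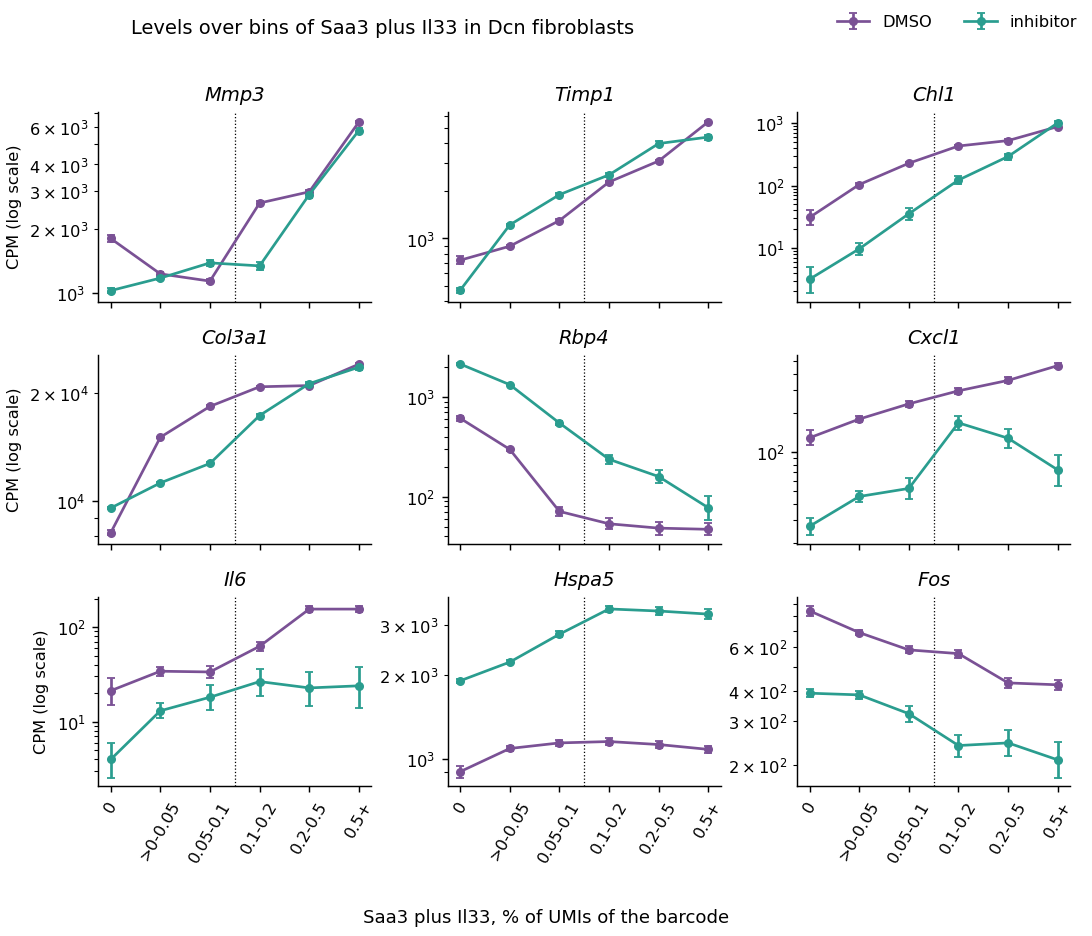
Level (y axis, CPM, log scale) of 9 genes over bins of Saa3 plus Il33 (x axis, % of a barcode's UMIs) in Dcn fibroblasts of the DMSO and inhibitor libraries; bars are 95% counting intervals, and members lie right of the dotted line. Chl1 and Col3a1 end at like levels in both libraries, while Hspa5 is higher and Il6 lower in the inhibitor library in every bin.

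Against other Dcn fibroblasts, members carried more acute-phase and chemokine transcripts. A gene was called where both libraries had a ratio of 1.5-fold or more on the same side and both intervals left out 1. Measured genes reached 20 CPM in 1 library and 30 UMIs over both. Of 5955 measured genes, 127 (2.13%) were higher and 228 (3.83%) lower in members, 355 (5.96%) in all. These counts describe cells chosen by values in the same counts, and nothing is read from them.

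Lcn2, a neutrophil protein that binds bacterial iron carriers, stood at 777 and 323 CPM in members (DMSO, then inhibitor) against 84.7 and 43.7 CPM in other Dcn fibroblasts. Ptx3, a soluble pattern receptor, was at 197 and 99.6 CPM against 49.5 and 8.76 CPM. Of 6 measured acute-phase genes 5 were higher in members, the others being Hp, Saa1 and Serpina3n. Cp, encoding ceruloplasmin, was the exception at 558 and 324 CPM against 574 and 313 CPM. These levels pool the kinds of member. Inhibitor members with Il33 only, 134 of 205, held Lcn2 at 44.1 CPM, near the 43.7 CPM of other Dcn fibroblasts. Hp was at 95.7 CPM in them against 69.8 CPM. Ptx3 (61.3 against 8.76 CPM) and Serpina3n (2045 against 654 CPM) were further above the other Dcn fibroblasts.

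Chemokine genes followed. Cxcl5, which draws neutrophils, was at 81.1 and 64.6 CPM in members against 4.93 and 1.39 CPM. Ccl2, the main attractant of monocytes, was at 428 and 452 CPM against 94.8 and 32.5 CPM, and its relative Ccl7 at 453 and 365 CPM against 128 and 49.4 CPM. Of 7 measured CXC chemokines 5 were higher in members (Cxcl1, Cxcl5, Cxcl10, Cxcl12 and Cxcl14), and of 6 CC chemokines and colony-stimulating factors 3 (Ccl2, Ccl7 and Ccl19). Single barcodes weighed on some of these: 1 barcode gave 27.5% of the Cxcl5 UMIs, 63.2% of the Cxcl10 UMIs and 19.2% of the Ccl2 UMIs of the inhibitor members.

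Receptors for interleukin-1 were also higher in members. Il1r1, the signalling receptor, was at 356 and 253 CPM against 184 and 83.9 CPM, and the decoy Il1r2 at 33.6 and 22.5 CPM against 19.1 and 6.90 CPM. Il1rl1, the receptor for Il33, had no UMI in members of either library. Of 6 measured metalloproteinases Mmp3 and Mmp13 were higher. The metallothioneins Mt1 (7444 and 7152 CPM against 3434 and 3369) and Mt2, which bind zinc and copper, were higher in both libraries. Aldh1a2, which makes retinoic acid, was at 155 and 70.2 CPM against 50.5 and 7.83 CPM.

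Of 6 measured genes of a list of Rbp4 and Fmod fibroblasts, 3 were lower in members (Rbp4, Fmod and Angptl7) and 1 higher. Rbp4 was at 49.7 and 176 CPM in members against 256 and 1509 CPM, and Fmod, a collagen-binding proteoglycan, at 30.3 and 43.7 CPM against 114 and 364 CPM. Cst3, the protease inhibitor cystatin C, was at 2219 and 4486 CPM against 6056 and 14971 CPM. Timp3, a matrix-bound inhibitor of metalloproteinases, was at 277 and 447 CPM against 768 and 1555 CPM, opposite to Timp1. The higher gene of that list was Prg4, a lubricating proteoglycan, at 989 and 909.7 CPM against 631 and 234 CPM. Angptl7 and Prg4 were picked out after their values were seen. Pi16, the marker of another adventitial state, did not separate the cells, at 2082 and 1705 CPM against 1701 and 1465 CPM.

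**Figure D3:**
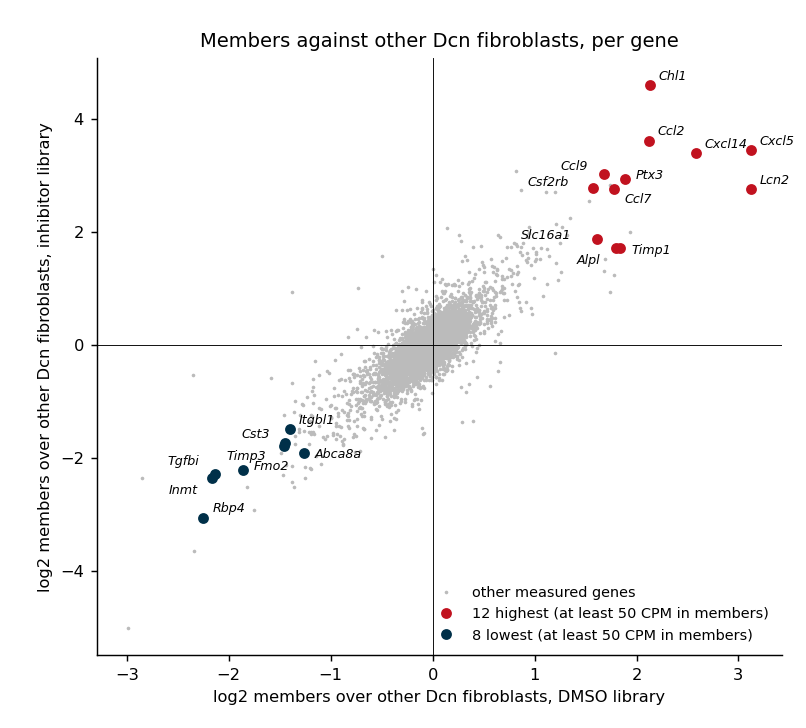
Log2 ratio of members over other Dcn fibroblasts, after adding 5 CPM, in the DMSO (x axis) and inhibitor library (y axis); each point is a measured gene, without the genes of the rule. Red points are the 12 highest and dark blue points the 8 lowest genes with at least 50 CPM in members, and Chl1 and Cxcl5 lie far above 0 in both libraries.

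The next comparison set inhibitor members against DMSO members. Of 6338 measured genes, 335 (5.29%) were higher and 434 (6.85%) lower in the inhibitor library by at least 1.5-fold with an interval that left out 1. The median log2 ratio of all measured genes was 0.01. Other Dcn fibroblasts, measured the same way, had 360 of 6487 genes higher (5.55%) and 552 lower (8.51%). Among genes measured in both, 129 were higher in both (45.6% of the members' and 46.4% of the others' calls) and 233 lower in both (59.4% and 45.9%). The 2 kinds of cell came from the same libraries, so these overlaps are no independent repeat.

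ER chaperones, which fold secreted proteins, stood highest in inhibitor members. The median log2 ratio of the 16 measured genes was 1.06, and 12 of them were higher and 0 lower. Creld2, an ER protein induced by misfolded proteins, was at 55.6 CPM in DMSO and 335 CPM in inhibitor members, a ratio of 6.03 (5.48 to 6.63). Hspa5, the main ER chaperone BiP, was at 1122 and 3376 CPM (3.01; 2.94 to 3.09). Manf, a secreted ER stress protein, was at 431 and 1416 CPM, and Hsp90b1, the ER form of HSP90, at 1300.4 and 2713 CPM. Calr, Pdia3, Pdia6 and Xbp1 were the 4 genes between the limits. In other Dcn fibroblasts 9 of 16 were higher, with a median of 0.70, and Hspa5 was at 1088 and 2182 CPM. A single barcode gave at most 3.33% of the inhibitor members' UMIs of Creld2, Hspa5, Manf, Sdf2l1, Herpud1 and Hyou1.

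Heat shock genes of the cytosol and mitochondria were higher as well, in 11 of 16 cases with 0 lower and a median of 0.81. Hspb1, a small heat shock protein, was at 353 and 856 CPM, and Hspa8, the constitutive HSP70, at 762 and 1560 CPM. Other Dcn fibroblasts had the same count, 11 of 16, with a median of 0.77. In the integrated stress list 1 of 7 genes was higher, Asns, which makes asparagine, at 24.4 and 53.4 CPM.

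Il6 and 4 of 6 acute-phase genes stood lower in inhibitor members. Il6 was at 121 CPM in DMSO and 24.7 CPM in inhibitor members, a ratio of 0.204 (0.161 to 0.256), and at 32.6 and 10.6 CPM in other Dcn fibroblasts. Of 6 genes of the interleukin-6 family 2 were lower, Il6 and the receptor gene Lifr, and of 2 measured genes of the interleukin-1 family 0 were. The acute-phase genes that were lower were Lcn2, Ptx3, Cp and Hp, with 0 higher and a list median of -0.85. Hp, encoding haptoglobin, was at 1198 and 625 CPM, with 45.6% of the inhibitor UMIs from 1 barcode. Without the top barcode of each library its log2 ratio was -1.74 in place of -0.93, and the call was lost with the limit on Saa3 alone (-0.17) or Il33 alone (-0.12). The call of Cp was lost with Saa3 alone (-0.45) and that of Ptx3 with Dcn at 0.8% (-0.24). Serpina3n, a serine protease inhibitor, was at 2309 and 2182 CPM in members but at 1389 and 654 CPM in other Dcn fibroblasts.

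CXC chemokines were lower in 5 of 9 cases with 0 higher. In the list of 6 CC chemokines and colony-stimulating factors 0 were lower. Cxcl1, a neutrophil attractant, was at 371 and 134 CPM (0.361; 0.326 to 0.398), and Cxcl13, which draws B cells, at 513 and 182 CPM. Cxcl9, an interferon-induced attractant of T cells, was at 58.4 and 3.12 CPM, the latter from 10 UMIs in 5 barcodes. In DMSO members 53 barcodes held Cxcl9, and 1 of them gave 29.1% of its UMIs. In inhibitor members 29 barcodes held Cxcl13, and 1 of them gave 28.8% of its UMIs. The median of the CXC list was -0.66, and -1.42 without the top barcode per gene. Ccl9, a CC chemokine outside the list of 6, was lower, at 228 and 96.1 CPM (0.421; 0.374 to 0.474). Ccl2 was at 428 and 452 CPM, a ratio of 1.06 (0.997 to 1.12), and the eosinophil attractant Ccl11 at 226 and 348 CPM was the 1 of 6 CC genes that was higher, a call lost after thinning (-0.01). Other Dcn fibroblasts had 4 of the 6 lower, with a median of -0.66 against 0.26 in members. Over the alternatives the members' median ran from -0.09, with Saa3 plus Il33 at 0.2%, to 0.54, with Dcn at 0.8%. The difference between the 2 kinds of cell was not tested.

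Transcription factors that respond within minutes, and regulators of NF-kappa-B, were lower. Of 22 immediate early genes 14 were lower and 0 higher (median -0.80), such as Fos at 477 and 234 CPM, Egr1 at 571 and 259 CPM and Atf3 at 90.6 and 31.2 CPM. Of 13 NF-kappa-B genes 7 were lower and 0 higher (median -0.53), among them Nfkbiz, a co-regulator of Il6 and Lcn2, at 84.1 and 34.6 CPM and the inhibitor Tnfaip3 at 23.4 and 9.67 CPM. In other Dcn fibroblasts 13 of 22 and 4 of 10 were lower.

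Calls among matrix genes differed by list. Of 12 matricellular genes, such as Thbs1 and Ccn1, 4 were lower and 1 higher, Spp1, described below. Of 19 elastic fibre genes 1 was lower and 1 higher, and of 8 proteoglycans 0 were called. Of 16 collagens 3 were lower and 0 higher (median -0.14): Col12a1, Col8a1 and Col5a3. With Saa3 alone the call of Col8a1 was lost (-0.40). With the same limit the calls of Chl1 (-0.12), Cxcl12 (-0.47) and Saa3 itself (-0.28) were lost, and that of Timp3 was lost with Dcn at 0.2% (0.45). Col1a1 was at 9590.4 and 8496 CPM. Of 9 ADAMTS and plasminogen genes 4 were lower, among them Adamts1, a protease of versican, at 318 and 174 CPM (call lost after thinning, -0.41), and Plaur, the urokinase receptor, was higher at 18.6 and 30.3 CPM. Mmp14, a membrane-bound collagenase, was the 1 of 6 metalloproteinases that was lower, at 358 and 227 CPM, a call lost with the limit on Saa3 alone (-0.27). Mmp3 had a ratio of 0.704 (0.688 to 0.720) and Timp1 one of 0.943 (0.924 to 0.963), both within the 1.5-fold limits. The Timp1 ratio pooled kinds of member that differed in direction. With 0.1% or more of each gene, Timp1 was at 5639 CPM in 140 DMSO and 2864 CPM in 26 inhibitor members. With Saa3 only it was at 3140.4 and 4599.7 CPM, and with Il33 only at 2407 and 3245 CPM. Complement genes had 1 of 10 higher, 1 lower and a median of -0.10 in members, while other Dcn fibroblasts had 5 of 11 lower. C3, the central complement protein, was at 6627 and 5953 CPM in members and at 5025 and 1789 CPM in the others.

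**Figure D4:**
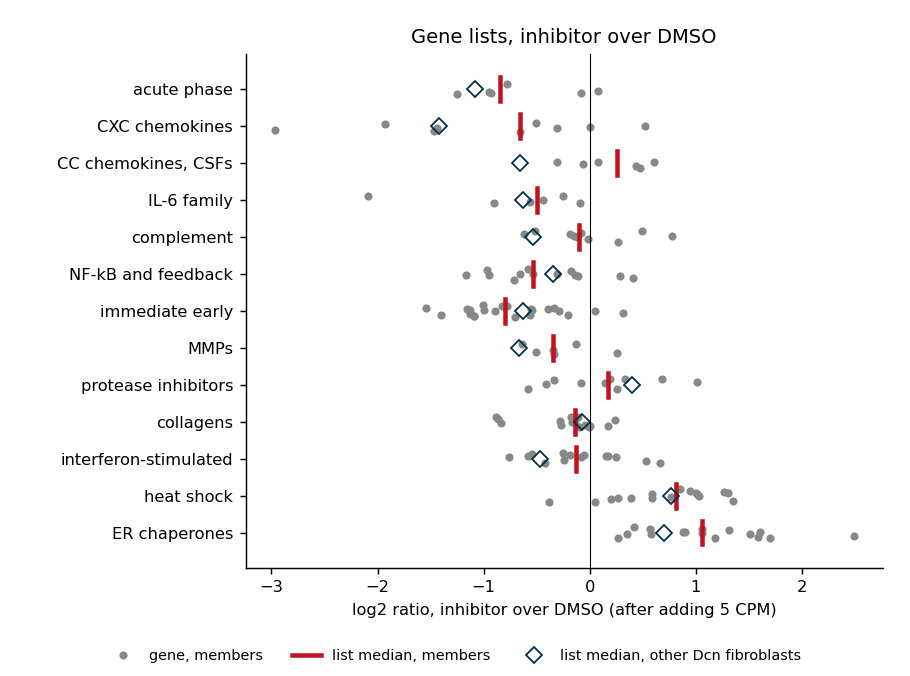
Log2 ratio of inhibitor over DMSO, after adding 5 CPM (x axis), for the measured genes of 13 lists (y axis) in members (grey points), with the list median in members (red line) and in other Dcn fibroblasts (open diamond). ER chaperones have a median of 1.06 and heat shock genes of 0.81, and acute-phase genes lie at -0.85.

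Some of the largest ratios came with signs of other cells or of single barcodes. Cd74, H2-Ab1 and H2-Aa, which present antigen in myeloid and B cells, were at 131 and 24.3 CPM, 62.6 and 11.5 CPM, and 54.2 and 11.5 CPM. The macrophage markers were lower in the same members, at 233 and 88.3 CPM, and their part was not tested. Acta2, the actin of smooth muscle and myofibroblasts, was higher at 334 and 584 CPM (call lost with Adipoq and Pecam1 at 0, 0.44), beside the smooth muscle markers named above. Inhba, a subunit of activin, was at 17.2 and 53.1 CPM, but 1 barcode gave 84.1% of the inhibitor UMIs and the log2 ratio without the top barcodes was -0.42. Spp1, encoding osteopontin, was at 155 and 236 CPM with 91.5% from 1 barcode, and its log2 ratio without the top barcodes was -1.96. The adipocyte genes Cfd and Car3 were lower, with 67.3% and 76.4% of the inhibitor UMIs from 1 barcode each, and the call of Cfd was lost with Dcn at 0.2% (-0.20).

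Because the libraries differed in how much Saa3 and Il33 their members held, cells at 0.5% or more were set side by side, 177 in the DMSO and 29 in the inhibitor library. This comparison was chosen after the other results had been seen. The rule's own genes chose these cells, by a lower limit only, and Saa3 was at 13355 and 12074 CPM. Of 6409 measured genes 7.51% were higher and 7.11% lower. Mmp3 was at 6333 and 5776 CPM and Serpina3n at 2699 and 2599 CPM. Lcn2 was at 1473 and 964 CPM, Ptx3 at 308 and 191 CPM and Ccl7 at 630.2 and 243 CPM. Cxcl13 was at 579 and 570.5 CPM, but 1 barcode gave 30.2% of its DMSO and 41.4% of its inhibitor UMIs. Hp was at 1514 and 2191 CPM, opposite to its order over all members, with 58.6% of the inhibitor UMIs from 1 barcode. Il6 was at 155 and 23.9 CPM (0.154; 0.0892 to 0.249) and Cxcl1 at 462 and 73.1 CPM (0.158; 0.118 to 0.208), with 29.4% and 38.5% of the inhibitor UMIs from 1 barcode. Hspa5 was at 1083 and 3285 CPM. Of the ER chaperones 12 of 16 were higher, and of the immediate early genes 16 of 22 were lower, while the acute-phase median was -0.26 with 1 of 7 higher and 2 lower.

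Members with Il33 only and members with Saa3 only were also set side by side, with genes picked after their values were seen and no test of the difference. Some genes lay further apart between the libraries in Il33-only members and others in Saa3-only members. Lcn2 was at 344 CPM in DMSO and 44.1 CPM in inhibitor members with Il33 only, and at 697 and 564 CPM in members with Saa3 only. Mmp3 was at 2524 and 1297 CPM in the first and at 3687 and 4293 CPM in the second. Chl1 was at 472 and 115 CPM, and at 535 and 470 CPM. Ptx3 went the other way, at 108 and 61.3 CPM in Il33-only and 130.2 and 49.0 CPM in Saa3-only members, as did Cxcl1 (278 and 144 CPM, then 325 and 134 CPM) and Il6 (69.9 and 20.6 CPM, then 104 and 25.2 CPM). Hspa5 was higher in the inhibitor library in both kinds, at 1166 and 3659.7 CPM and at 1051 and 2503 CPM. Saa3-only members of the DMSO library also held more of the adipocyte gene Car3 than Il33-only members (353 and 42.3 CPM) and of Myh11, the smooth muscle myosin (84.4 and 21.6 CPM). Whether these come from the cells or from free RNA was not tested.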

How the data were processed

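Single-cell RNA-seq counts of aortic aneurysm tissue were analysed, 1 library per group. The authors deposited raw UMI counts per gene and barcode, which per the file headers came from Cell Ranger 6.1.1; GRCm38 and Seurat are named in the submitters' processing notes. All 55450 gene rows match GENCODE M21. The libraries held 9125 barcodes with 101139161 UMIs (DMSO) and 8149 with 79648307 (inhibitor). The members, gene lists and tests were chosen with earlier results of these data known.

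UMIs were summed per library and group of cells and scaled to CPM. Ratios have exact conditional binomial 95% intervals, and log2 ratios were taken after adding 5 CPM. Named genes needed 50 CPM and 30 UMIs in members: the 12 highest and 12 lowest ratios between libraries, the 12 highest and 8 lowest against other Dcn fibroblasts, up to 4 per list and direction, and Saa3, Il33, Mmp3, Timp1 and Dcn, 93 in all. Some other genes given in the text, such as Il1r2, Tnfaip3, Plaur, Fmod, Igfbp3 and Dkk2, lay below 50 CPM in members of both libraries. The ratio calls were run on simulated counts that held counting error only, with no variation between barcodes or animals. That run cannot show how the calls behave where single barcodes weigh on a gene. Doublets were called with Scrublet (scanpy 1.11.5) at 6%; its automatic threshold called 0 DMSO barcodes, so the inhibitor library's threshold was used for both. Of 20 alternatives, 18 were planned and 2 were added after seeing the data. The promoter patterns and the genes shown were picked after seeing values, and the narrow NF-kappa-B pattern after the broad one. Python 3.11.15, numpy 2.4.6 and scipy 1.17.1 were used.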

Additional observations from a re-analysis of the deposited data

How the results depend on the processing

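No paired analysis was possible because each group holds 1 library. The share of members was lower in the inhibitor library under each alternative run, but its size moved. Over passing barcodes the log2 ratio of -1.51 became -1.14 with the limit at 0.05%, -1.84 at 0.2%, -2.33 with Saa3 alone, -1.04 with Il33 alone and -1.17 with Adipoq and Pecam1 at 0. Among Dcn fibroblasts -1.74 became -1.37, -2.08, -2.56 and -1.27 under the first 4 of these and -1.42 after thinning. The 335 genes higher in inhibitor members became 515 after thinning, 873 with no filter on low values and 78 at 2-fold. The 434 lower became 678 with the mean of per-barcode CPM, 1362 with no filter and 150 at 2-fold. Against other Dcn fibroblasts, 127 higher became 278 with no filter and 44 at 2-fold, and 228 lower became 143 after thinning, 640 with no filter and 80 at 2-fold. The cause was not tested, except that a 2-fold limit admits fewer and no filter more genes by construction.

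Among the named genes called between the libraries, direction changed for 4. Of all 93 named genes, 14 changed sign under some alternative, the other 10 being Cxcl5, Cxcl14, Ccl2, Ccl7, Timp1, Csf2rb, Inmt, Abca8a, Il33 and Dcn, which were not called. Inhba was at -0.93 with the limit at 0.2%, -0.92 with Saa3 alone, -1.37 with Dcn at 0.8% and -0.42 without the top barcode. Spp1 was at -0.10 at 0.05%, -1.41 with Il33 alone, -3.10 with Dcn at 0.8%, -1.13 after thinning, -0.26 with the mean of per-barcode CPM and -1.96 without the top barcode. After thinning, Ccl11 was at -0.01 and Ccn3 at 0.04. Leaving out each gene's top barcode was chosen after seeing the data, as was leaving out barcodes with adipocyte signal, which gave a log2 share ratio of -1.64 among Dcn fibroblasts. Inhibitor members number 205, and at this depth genes under 20 CPM were not compared.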

Other observations

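A few genes of growth factor and Wnt signalling, which the text above leaves out, were among the lower ones in inhibitor members. Igfbp3, which binds insulin-like growth factors, was at 31.7 CPM in DMSO and 1.25 CPM in inhibitor members, and at 60.5 and 10.8 CPM in other Dcn fibroblasts. Dkk2, a secreted regulator of Wnt signalling, was at 34.7 and 3.12 CPM, and at 29.9 and 4.70 CPM in the others. Of 6 measured Wnt antagonists 3 were lower and 0 higher. Gpx3, a secreted glutathione peroxidase, was at 827 and 367 CPM in members. Fdps, an enzyme of cholesterol synthesis, was higher, at 13.5 and 54.9 CPM, with 19.9% of the inhibitor UMIs from 1 barcode.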
